A study of Mus musculus with 58 samples.

Results

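Hematopoietic stem cells (HSCs) of old mice under lifelong caloric restriction (CR) and of young mice under short-term CR were compared gene by gene, to ask which parts of the CR response differ between the ages and which are shared. The comparison used 16 RNA-seq libraries of the 58 samples in the series, 4 in each of 4 groups, and rests on 1 fit of all 16. For every gene the change from ad libitum (ad lib) feeding to CR was taken in old HSCs (OCR over OAL) and in young HSCs (YCR over YAL). The quantity of interest was the old change minus the young change on the log2 scale, (OCR - OAL) - (YCR - YAL), called the difference in what follows. A positive difference means that the gene moved further up, or less far down, with CR in old HSCs than in young HSCs.

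All mice were wild-type C57BL/6 males. OAL mice (old, ad lib) and OCR mice (old, CR) were 24 to 26 months old and came from an aged rodent colony, and OCR mice had been held at 40% CR since they were 3 to 4 months old. YAL mice (young, ad lib) and YCR mice (young, CR) were 3 to 4 months old and came from a commercial breeder. YCR mice had received 20% CR in the first week and 40% CR in the following 3 weeks, 4 weeks in total. Age, supplier and length of CR therefore changed together, and so did the number of genes detected and the spread between libraries, and their effects cannot be told apart. HSCs were sorted as viable cells that carried Sca-1, c-Kit and CD150 and lacked lineage markers, CD34 and Flk2. The study counts these libraries as mice, while the labels name no animals and do not say whether cells were pooled. The p-values therefore measure the spread between these libraries, and for each gene the fit shares that spread over all groups. The spread was larger in the young groups, as given below. The SE and p-value of a change at a given age thus do not measure that age's own spread.

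HSCs are the rare bone marrow cells from which all blood lineages are renewed. Most of them rest outside the cell cycle in adult marrow, and entry into S phase and mitosis is measured in RNA by genes such as those for the replicative helicase, cyclin B and topoisomerase II alpha. With age the HSC pool expands and its RNA shifts toward platelet-lineage and adhesion genes. CR, a lowered food intake without malnutrition, acts on nutrient and growth factor signals such as insulin, IGF1 and mTORC1 in many tissues.

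Each library was deposited as raw counts on genes. Totals were 27979109 to 34385179 counts in the old libraries and 17194907 to 35676728 in the young ones. The old libraries detected 42071 to 46606 genes and the young ones 24222 to 33496. Olfactory and vomeronasal receptor genes, which HSCs are not known to use, together made up 66.5 to 474 CPM (counts per 1000000 counts of the library) in the young libraries and 530 to 1257 CPM in the old ones. The median SD of log2 CPM between the 4 libraries was 0.11 in OAL, 0.13 in OCR, 0.23 in YAL and 0.24 in YCR HSCs, and the spread was larger in the young groups for 90.6% of the 12308 genes that averaged at least 5 CPM. No pair of libraries in a group agreed within counting noise. HSC genes were high in every library, with 1333 to 1900 CPM for Kit, 496 to 684 CPM for Hlf and 51.5 to 122 CPM for Slamf1, the gene for CD150. Markers of mature cells were low, with at most 1.32 CPM for the T cell gene Cd3e and 2.36 CPM for the neutrophil gene Ly6g. In these bulk libraries, fewer cells of a type and less RNA per cell cannot be told apart.

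Genes of mitosis led the genes that were higher in the difference. Top2a, Cdk1 and Ccnb1 rose with lifelong CR in old HSCs, and of these only Top2a rose with short-term CR in young HSCs. Mamdc2 and Prdx4 were also higher in the difference, and Itgb3, Sult1a1 and Mt1 were lower. Of 28328 genes tested with edgeR's quasi-likelihood test, a difference of more than 1.2-fold with an adjusted p (Benjamini-Hochberg) under 0.05, which makes a called gene in what follows, was found for 5 genes that were higher (0.0177% of all tested) and for 7 that were lower (0.0247%). The remaining 4 lower genes were Igha, Igkc, Jchain and Gm26719, which are given apart from the others. An unadjusted p below 0.05 for the difference was reached by 2531 genes (8.93%), 1146 of them higher and 1385 lower. The count depended on the test. With limma voom and a separate variance for each age, 0 genes were called (1983 at an unadjusted p below 0.05), and DESeq2 called 111 higher and 128 lower, with all 12 genes among them.

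**Figure D1:**
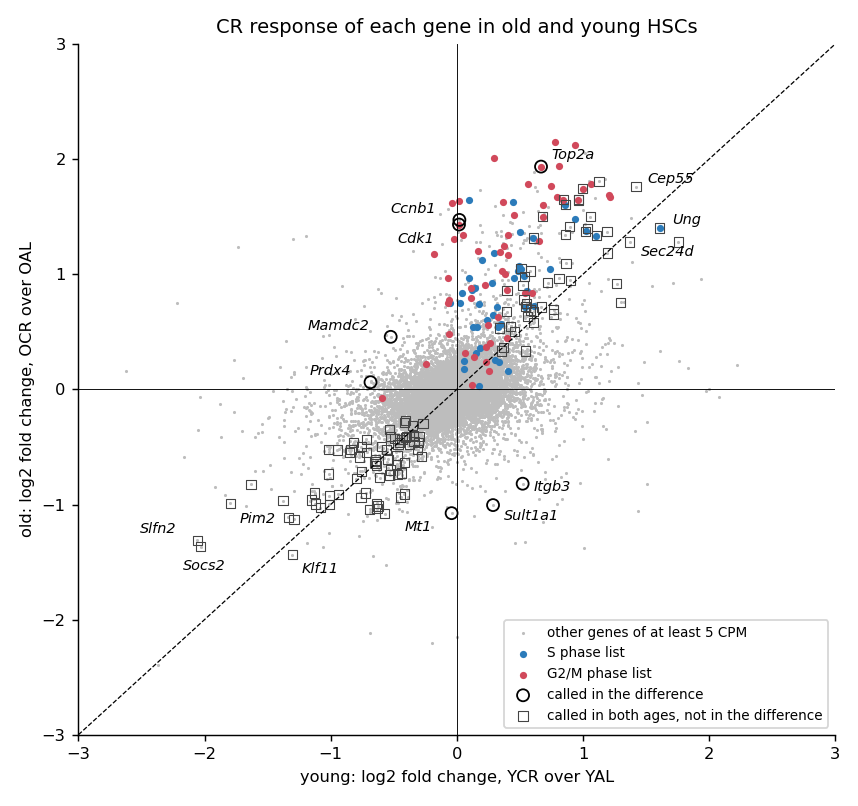
Each point is 1 of 12303 genes that averaged at least 5 CPM (5 more lie outside the axes). The x axis gives the log2 fold change with CR in young HSCs and the y axis that in old HSCs. Blue and red points are the S phase and G2/M lists, black circles mark genes called in the difference, squares mark the 119 genes called in both ages but not in the difference, and the dashed line marks an equal response. Most red points lie above the dashed line, and the squares lie where both changes have the same sign.

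Top2a encodes DNA topoisomerase II alpha, which untangles sister chromatids before division. It lies on chr11:98992943-99024189, minus strand, in the mouse build GRCm38 (mm10). Its level, after TMM scaling of the libraries, was 35.6, 38.4, 46.0 and 36.7 CPM in OAL and 162, 177, 134 and 127 CPM in OCR HSCs. It was 71.2, 64.3, 68.0 and 75.4 CPM in YAL and 115, 99.5, 108 and 120 CPM in YCR HSCs. CR and ad lib libraries did not overlap at either age, all OAL values lay below all YAL values, and all OCR values lay above all YCR values. The log2 fold change was 1.94 ± 0.11 (SE, n = 4 per group, adjusted p = 1.36e-08 by edgeR) in old and 0.67 ± 0.11 (adjusted p = 0.00349) in young HSCs. Here and below, each SE rests on the spread that the fit shares over all groups. The difference was 1.27 (SE 0.16, 95% interval 0.94 to 1.59, adjusted p = 0.00357). Top2a was the only gene called in both ages with the same sign and also in the difference, and its call held in 16 of 16 fits that each left out 1 library.

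Cdk1 is the kinase that drives entry into mitosis and Ccnb1 encodes cyclin B1, its partner. Cdk1 (chr10:69335146-69352938, minus strand) was at 16.4, 15.2, 15.7 and 17.0 CPM in OAL, 50.5, 47.0, 37.4 and 38.7 CPM in OCR, 35.1, 26.3, 30.0 and 36.7 CPM in YAL and 27.7, 41.5, 24.3 and 36.0 CPM in YCR HSCs. The old groups lay apart and the young groups overlapped. Its log2 fold change was 1.43 ± 0.17 in old HSCs (adjusted p = 0.000107) and 0.02 ± 0.16 in young HSCs (adjusted p = 0.973), a difference of 1.41 (SE 0.23, 95% interval 0.93 to 1.90, adjusted p = 0.0295 by edgeR). Ccnb1 (chr13:100778650-100786570, minus strand) was at 11.7, 17.5, 17.0 and 14.8 CPM in OAL, 46.9, 53.1, 32.8 and 36.3 CPM in OCR, 21.9, 21.9, 29.5 and 27.1 CPM in YAL and 20.1, 29.3, 26.0 and 26.6 CPM in YCR HSCs. As for Cdk1, only the old groups lay apart. The change was 1.47 ± 0.18 in old and 0.02 ± 0.18 in young HSCs, and the difference was 1.45 (SE 0.25, 95% interval 0.92 to 1.98, adjusted p = 0.0431). Cdk1 was called in 6 and Ccnb1 in 3 of the 16 fits without 1 library, and over all 27 alternatives their differences stayed within 1.32 to 1.57 and 1.29 to 1.56.

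Many genes of mitosis share short promoter letters, the CCAAT box, known as the site of the factor NF-Y, and the CHR element TTTGAA, known as a site of the DREAM and MuvB complexes that hold such genes down in resting cells. The promoters of the 3 genes called higher that act in mitosis are shown to let these letters be read. They are taken from the 250 bases before the RefSeq start site in GRCm38.p6, 5' to 3' on the gene's strand, all minus, with CCAAT or its reverse complement ATTGG and TTTGAA or its reverse complement TTCAAA in capitals. For Cdk1 and Ccnb1 the last bases of that window lie within the longer gene models of GENCODE and are not shown.
Top2a, chr11:99024190-99024439: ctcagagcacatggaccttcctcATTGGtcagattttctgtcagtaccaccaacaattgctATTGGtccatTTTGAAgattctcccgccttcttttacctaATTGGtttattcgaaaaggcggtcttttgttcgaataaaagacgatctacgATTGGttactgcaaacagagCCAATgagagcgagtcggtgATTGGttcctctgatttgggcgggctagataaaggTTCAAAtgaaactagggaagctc
Cdk1, chr10:69352939-69353162: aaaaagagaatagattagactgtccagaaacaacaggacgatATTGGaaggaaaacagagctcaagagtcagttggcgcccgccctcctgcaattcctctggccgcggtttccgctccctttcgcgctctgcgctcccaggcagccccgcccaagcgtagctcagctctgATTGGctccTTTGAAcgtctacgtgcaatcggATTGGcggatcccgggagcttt
Ccnb1, chr13:100786571-100786736: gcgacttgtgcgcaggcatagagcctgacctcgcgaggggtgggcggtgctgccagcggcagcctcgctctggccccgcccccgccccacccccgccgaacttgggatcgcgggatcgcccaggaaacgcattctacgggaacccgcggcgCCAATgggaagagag
In the whole window Top2a held 6 CCAAT and 2 CHR matches, Cdk1 held 3 and 2 (1 CHR match is not shown), and Ccnb1 held 2 CCAAT (1 not shown) and 0 CHR matches. No CCAAT match overlapped a CHR match in the stretches shown. CCAAT was found, on either strand, in 36 of the 47 G2/M genes with a promoter in the table (76.6%), in 22 of 31 S phase genes (71%) and in 37.5% of all 27025 promoters of the same length. CHR was found in 20 of 47 G2/M genes (42.6%), in 6 of 31 S phase genes (19.4%) and in 18.3% of all promoters. The letters GGCGGGAA, a form of the E2F site, were found in 4 of 31 S phase genes (12.9%), 1 of 47 G2/M genes (2.13%) and 2.13% of all promoters. These are matches of letters and not measured binding sites.

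The G2/M list, 54 genes of mitosis and its preparation, showed the same direction far beyond the called genes. Its median log2 fold change was 1.2 in old and 0.35 in young HSCs, and the median difference was 0.76, against 0.00 over all genes that averaged at least 5 CPM. The difference was above 0 in 52 of 54 members, against 50.7% of the genes of that level, and 35 members reached an unadjusted p below 0.05, all of them higher. Of the members, 38 rose and 0 fell in old HSCs, where 1.48% of all genes were called, and 6 rose and 0 fell in young HSCs, where 2.5% of all genes were called. When each age was fitted on its own 8 libraries, 48 members rose in old and 1 rose in young HSCs. Examples named after their values were seen were Kif2c, a kinesin that removes tubulin from chromosomes (difference 1.71, adjusted p = 0.309), and Ccnb2, the gene of cyclin B2 (1.19, adjusted p = 0.327). The median over the list of each gene's log2 CPM minus its mean over the 16 libraries was -0.70 to -0.45 in OAL, 0.36 to 0.69 in OCR, -0.13 to -0.07 in YAL and 0.09 to 0.46 in YCR HSCs. OAL HSCs thus had the lowest levels of the 4 groups, below YAL HSCs, and the OCR range overlapped the YCR range.

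The S phase list, 43 genes of DNA replication, moved the same way with a smaller difference. The medians were 0.85 in old and 0.32 in young HSCs and 0.42 for the difference, which was above 0 in 38 of 43 members and reached an unadjusted p below 0.05 in 23, all of them higher. In old HSCs 33 members rose and 0 fell, in young HSCs 9 rose and 0 fell, and 8 rose in both. In the fits of each age alone, 37 rose in old and 0 in young HSCs. No member was called in the difference. Mcm5, a subunit of the replicative helicase, came nearest, with 67.8 to 84.3 CPM in OAL and 128 to 198 CPM in OCR, 151 to 183 CPM in YAL and 169 to 202 CPM in YCR HSCs. Its old groups lay apart and its young groups overlapped, with changes of 1.13 ± 0.12 in old and 0.20 ± 0.12 in young HSCs and a difference of 0.93 (SE 0.17, 95% interval 0.58 to 1.28, adjusted p = 0.0541). The median difference stayed between 0.67 and 0.85 for the G2/M list and between 0.33 and 0.49 for the S phase list over all 27 alternatives.

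**Figure D2:**
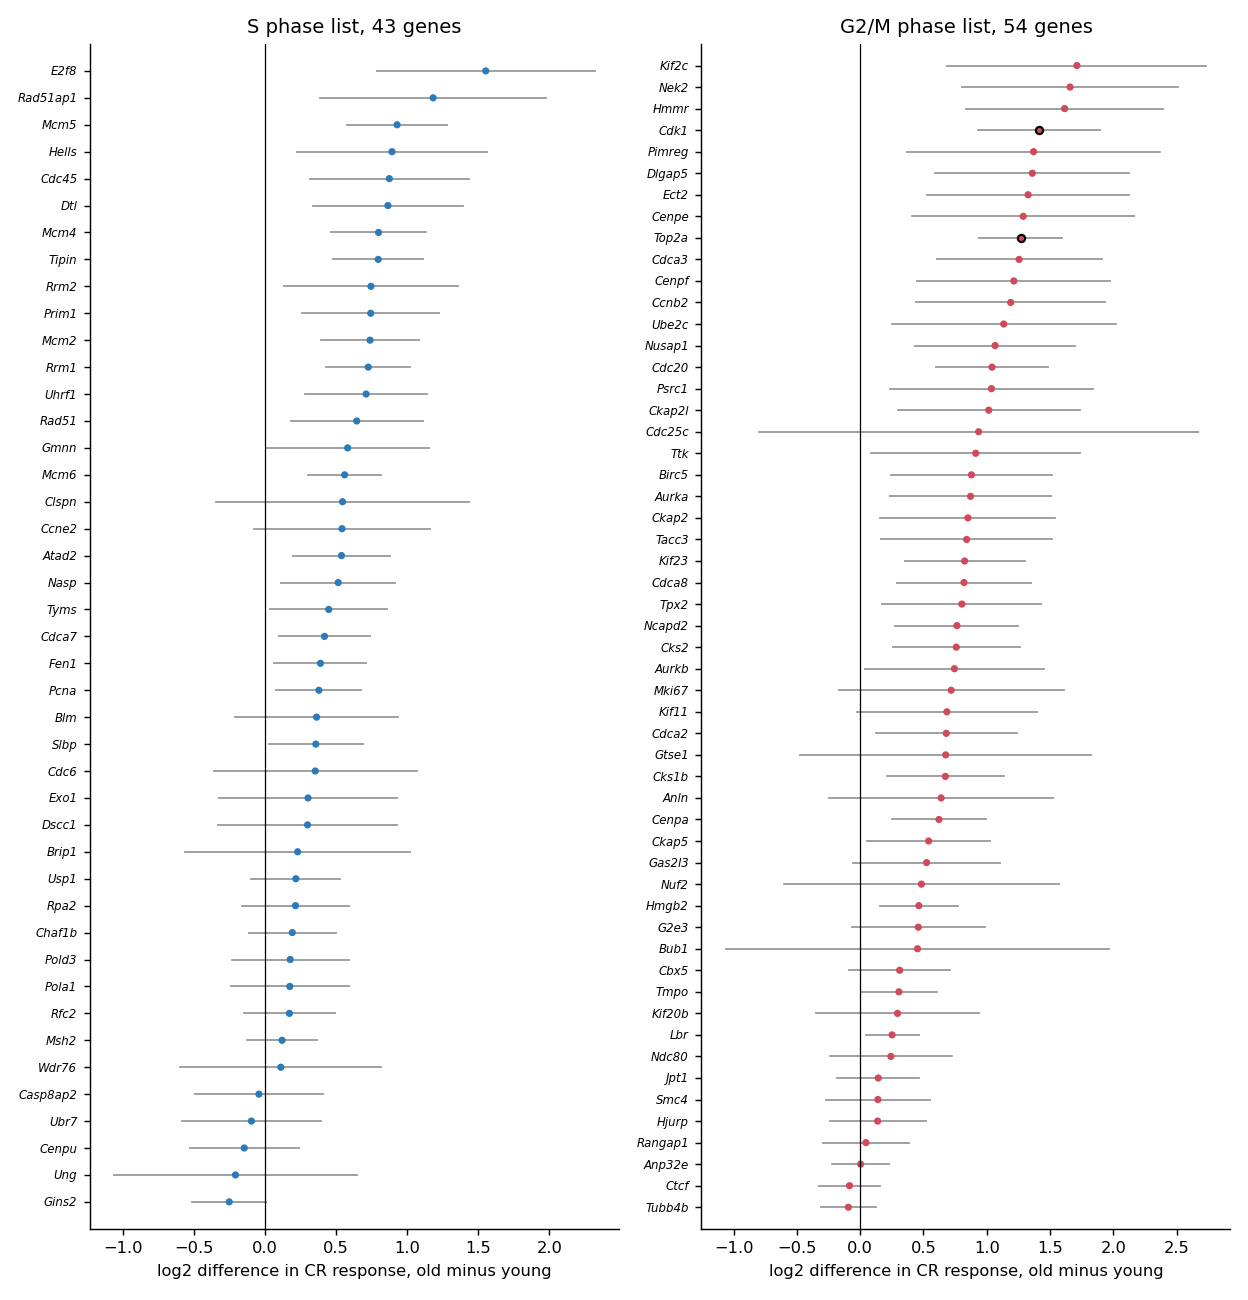
Each point is 1 gene of the S phase list (43 genes) or the G2/M list (54 genes), the x axis gives the log2 difference in CR response, old minus young, and the lines are 95% intervals. Black outlines mark the 2 called genes, Cdk1 and Top2a. The points lie to the right of 0 in 38 of 43 and 52 of 54 genes.

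For other cell cycle genes named by the study the difference did not pass the test. Mki67, the gene of the proliferation antigen Ki-67, was at 30.7 to 39.4 CPM in OAL, at 102 to 142 CPM in OCR and at 49.0 to 89.1 CPM in YCR HSCs, and at 38.0, 38.8, 8.61 and 39.1 CPM in YAL HSCs. CR libraries lay above ad lib libraries at both ages. The changes were 1.79 ± 0.31 (adjusted p = 0.00305) and 1.07 ± 0.30 (adjusted p = 0.0662), with a difference of 0.72 whose 95% interval, -0.17 to 1.61, included 0. Ccna2, cyclin A2, rose at both ages in the fit of all libraries, by 1.34 in old (adjusted p = 0.00035) and 0.86 in young HSCs (adjusted p = 0.0157). Its difference was 0.48 (95% interval -0.04 to 1.01). Ccna2 was not called at both ages in the fits of each age alone. Ect2, which directs cytokinesis, rose in old HSCs by 1.31 (adjusted p = 0.0137) against -0.02 in young HSCs, and its difference of 1.33 (95% interval 0.53 to 2.12) had an adjusted p of 0.309. The checkpoint kinase gene Chek1 rose in old HSCs by 1.15 (adjusted p = 0.0216) and changed by 0.67 in young HSCs (adjusted p = 0.151). For Chek2 the log2 fold changes were 0.27 and 0.22 and for the repair gene Brca1 1.32 and 0.56, and none of these passed the test in this fit. The study reported Chek2 and Brca1 as raised in OCR HSCs, from old groups only. This fit holds 1 spread for old and young libraries, so it is not the same comparison. Of 18 genes of DNA damage signaling and recombination, 4 rose in old and 1 in young HSCs, and the median difference was 0.27. In the fits of each age alone, 11 rose in old and 0 in young HSCs.

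Mamdc2, Itgb3, Sult1a1 and Mt1 belong to the HSC aging signature, a consensus list from independent studies. Mamdc2, which encodes a secreted protein with MAM domains, is in the part that falls with age, and the others are in the part that rises with age. Mamdc2 (chr19:23302609-23448442, minus strand) was at 40.8, 45.0, 41.6 and 49.9 CPM in OAL, 59.2, 56.7, 53.9 and 73.6 CPM in OCR, 105, 114, 107 and 101 CPM in YAL and 81.5, 68.5, 80.9 and 66.4 CPM in YCR HSCs. The groups lay apart at both ages, in opposite directions. It rose by 0.46 ± 0.11 in old HSCs (adjusted p = 0.0333) and changed by -0.52 ± 0.11 in young HSCs (adjusted p = 0.0147), a difference of 0.98 (SE 0.15, 95% interval 0.66 to 1.30, adjusted p = 0.0281 by edgeR). The call held in 10 of 16 fits without 1 library.

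Itgb3 encodes integrin beta 3, a subunit of the fibrinogen receptor of platelets and of the vitronectin receptor. Itgb3 (chr11:104608000-104670476, plus strand) was at 361, 389, 310 and 336 CPM in OAL, 158, 201, 206 and 226 CPM in OCR, 68.3, 102, 121 and 110 CPM in YAL and 158, 168, 99.3 and 153 CPM in YCR HSCs. OCR values lay below all OAL values and, apart from those of OCR replicate 1, above all values of the young groups, which overlapped. The changes were -0.82 ± 0.16 (adjusted p = 0.00917) and 0.52 ± 0.16 (adjusted p = 0.09), a difference of -1.34 (SE 0.23, 95% interval -1.82 to -0.86, adjusted p = 0.0396). Sult1a1, a sulfotransferase of phenols (chr7:126672865-126676432, minus strand), was at 351, 300, 307 and 421 CPM in OAL, 136, 167, 197 and 187 CPM in OCR, 179, 174, 214 and 219 CPM in YAL and 262, 262, 207 and 229 CPM in YCR HSCs. Its level in OCR HSCs overlapped that of YAL HSCs. The changes were -1.0 ± 0.13 (adjusted p = 0.00018) and 0.29 ± 0.12 (adjusted p = 0.219), a difference of -1.29 (SE 0.18, 95% interval -1.66 to -0.92, adjusted p = 0.00849), and it was called in 16 of 16 fits without 1 library, against 4 of 16 for Itgb3.

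Mt1 encodes a metallothionein, a small protein that binds zinc and copper and is induced by metals and glucocorticoids. Mt1 (chr8:94179082-94180327, plus strand) was at 117, 140, 151 and 152 CPM in OAL and 61.6, 77.0, 72.6 and 53.9 CPM in OCR HSCs, and at 26.1 to 37.1 CPM in the 8 young libraries, where the groups overlapped. It changed by -1.07 ± 0.13 in old (adjusted p = 0.00015) and -0.04 ± 0.13 in young HSCs (adjusted p = 0.91), a difference of -1.03 (SE 0.18, 95% interval -1.42 to -0.65, adjusted p = 0.0467). The call held in 2 of 16 fits without 1 library. Mt2, its neighbor in function, named after its values were seen, was at 22.4 to 37.8 CPM in OAL and at 8.92 to 15.8 CPM in OCR HSCs. Its difference of -2.38 (adjusted p = 0.0761 by edgeR) also takes in the change in young HSCs, which is not given here, and is not the size of the old fall. Prdx4, a peroxide-reducing enzyme of the endoplasmic reticulum (chrX:155323918-155340754, minus strand), was at 57.9 to 69.6 CPM in OAL and 63.1 to 70.0 CPM in OCR, 82.2 to 96.8 CPM in YAL and 50.0 to 62.5 CPM in YCR HSCs. Here the young groups lay apart and the old ones overlapped. The changes were 0.06 ± 0.09 (adjusted p = 1) and -0.68 ± 0.09 (adjusted p = 0.000825), a difference of 0.75 (SE 0.13, 95% interval 0.47 to 1.02, adjusted p = 0.0467), which was called in 4 of 16 fits without 1 library.

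**Figure D3:**
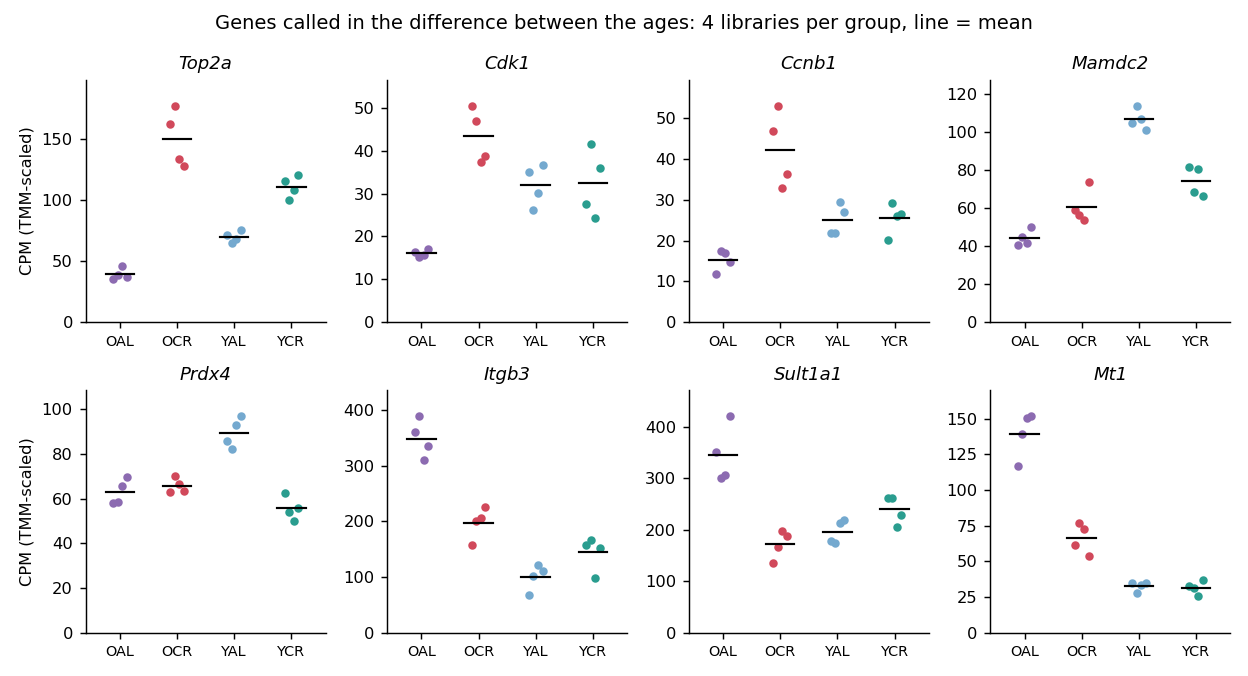
Level (CPM after TMM scaling, y axis from 0) of the 8 genes called in the difference that averaged at least 5 CPM, other than antibody genes, in each of the 4 libraries per group (points) with the group mean (line). Top2a and Ccnb1 have OCR values above all others, and in Itgb3, Sult1a1 and Mt1 the OAL values lie above all others.

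Igha, Igkc and Jchain, which encode parts of secreted antibodies made by plasma cells, were called lower in the difference, but the levels followed single libraries. Igha had 4164, 4, 2681 and 10 counts in OAL, 6, 6, 15 and 14 in OCR, 29, 0, 26 and 0 in YAL and 0, 7033, 23068 and 13205 in YCR HSCs. OAL replicates 1 and 3 and YCR replicates 2 to 4 thus held the transcripts, and the groups overlapped at both ages. Jchain had 1581 and 696 counts in the same OAL libraries and 2528, 5885 and 4420 in the same YCR libraries, and 39 or fewer in each of the others. Igkc showed the same libraries high, with 222 to 450 counts in YCR replicate 1 and the YAL libraries. The summed level of the list of 11 B cell and plasma cell markers was 43.1 to 277 CPM in OAL, 45.5 to 52.8 in OCR, 93.0 to 189 in YAL and 84.1 to 1400 in YCR HSCs. A lincRNA, Gm26719, was at 0 counts in the 4 YAL libraries, 76, 12, 22 and 18 in YCR, 18 to 40 in OAL and 9 to 30 in OCR HSCs, and its mean of 0.69 CPM was below the level used for naming. The fitted folds of these 4 genes depend on counts near 0 and are not read as sizes. The part of plasma cell transcripts in other results was not tested.

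Among the other cell types a sort could let through, summed marker levels moved in part with CR. The 9 T and NK cell markers summed to 62.1 to 73.9 CPM in OAL and 45.0 to 57.6 CPM in OCR HSCs, and to 24.6 to 40.5 CPM in YAL and 37.3 to 62.8 CPM in YCR HSCs. The 8 stroma and endothelium markers summed to 18.1 to 20.9, 19.4 to 30.7, 7.37 to 12.5 and 15.2 to 28.3 CPM in the same order. The 9 neutrophil markers summed to 4.92 to 89.9, 4.48 to 119, 3.55 to 713 and 2.31 to 276 CPM, and the 6 mast cell and basophil markers to 4.23 to 5.12, 5.26 to 8.39, 1.99 to 5.10 and 2.21 to 16.1 CPM. The 15 erythroid markers summed to 1539 to 2014 CPM over all libraries. The old groups did not overlap for the T and NK cell and the mast cell sums, nor the young groups for the stroma sum. The part of these cells in the results was not tested.

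Most genes that were called at one age had the same sign of change at the other. In the fit of all 16 libraries, 420 genes were called in old HSCs (245 higher, 175 lower) and 707 in young HSCs (306 higher, 401 lower), and 120 genes (0.424% of those tested) were called in both with the same sign, 49 higher and 71 lower. Opposite signs were called for 2 genes. This fit estimates 1 spread for all groups, so its calls at each age do not rest on that age's own spread. Fitted on their own 8 libraries, old HSCs had 1511 called genes of 27150 tested (689 higher, 822 lower). Young HSCs had 48 of 18680 tested (12 higher, 36 lower). Of these genes, 35 were called in both with the same sign and 0 with opposite signs, and 27 of the 35 were among the 120. Of the genes averaging at least 5 CPM, 91.1% of 415 called in old HSCs had the same sign in young HSCs, and 90.5% of 494 called in young HSCs had the same sign in old HSCs, against 63.3% of all 12308. Across these 12308 genes, which are not independent replicates, the changes at the 2 ages had a Pearson's r of 0.25 and a Spearman's rho of 0.39, and the contrasts share no library.

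A response was named alike where the mean response over both ages was called and the 95% interval of the difference lay within 1.5-fold in either direction. This held for 313 genes (1.1% of those tested), 103 higher and 210 lower, and 54 of the 120 genes called in both ages were among them. For the others of the 120 the interval reached beyond that limit, so an alike response was not shown. The 95% interval of the difference had a median reach of 0.43 on either side of the estimate and lay within 1.5-fold for 5670 of 12308 genes.

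Genes lower with CR at both ages were led by Socs2, Slfn2, Klf11 and Pim2. Socs2, a feedback inhibitor of cytokine receptors, was at 15.5, 9.70, 7.73 and 12.4 CPM in OAL, 2.82, 4.45, 5.11 and 5.15 CPM in OCR, 51.9, 87.8, 85.2 and 64.3 CPM in YAL and 17.4, 15.1, 22.9 and 15.6 CPM in YCR HSCs. The groups lay apart at both ages, and the young libraries lay higher. Its log2 fold changes were -1.37 ± 0.24 (adjusted p = 0.0033) and -2.03 ± 0.23 (adjusted p = 0.000207), and the difference was 0.66 (95% interval -0.02 to 1.34). Slfn2, a Schlafen family member known to keep T cells quiescent, was at 114, 57.0, 42.5 and 53.4 CPM in OAL, 18.1, 28.8, 30.4 and 30.2 CPM in OCR, 102, 129, 140 and 124 CPM in YAL and 28.1, 39.1, 21.1 and 30.6 CPM in YCR HSCs. CR libraries lay below ad lib libraries at both ages. The changes were -1.31 ± 0.25 (adjusted p = 0.00638) and -2.06 ± 0.25 (adjusted p = 0.000344), with a difference of 0.75 (95% interval 0.02 to 1.47, adjusted p = 0.543).

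Klf11, a Kruppel-like transcription factor gene, was alike by the definition above. It was at 46.9, 47.7, 55.9 and 59.6 CPM in OAL, 16.1, 21.9, 20.3 and 19.3 CPM in OCR, 54.8, 55.8, 64.1 and 59.2 CPM in YAL and 21.2, 24.4, 18.5 and 30.4 CPM in YCR HSCs. Old and young libraries overlapped within each diet, and CR libraries lay apart from ad lib ones at both ages. The changes were -1.44 ± 0.15 (adjusted p = 4.65e-05) and -1.30 ± 0.15 (adjusted p = 0.000189), and the difference was -0.13 (95% interval -0.56 to 0.29). Pim2, a kinase gene induced by cytokines, was at 85.5 to 205 CPM in OAL and 50.5 to 71.3 CPM in OCR, 65.1 to 109 CPM in YAL and 31.9 to 37.8 CPM in YCR HSCs. Its groups lay apart at both ages. The changes were -1.13 ± 0.20 (adjusted p = 0.00414) and -1.29 ± 0.21 (adjusted p = 0.00254), with a difference of 0.16 (95% interval -0.44 to 0.76).

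In the fit of all 16 libraries, genes higher with CR at both ages were led by Cep55, Ung, Sec24d and Synpo2. None of them was called at both ages when each age was fitted on its own 8 libraries. Cep55, which acts in the final cut between daughter cells, was at 4.14 to 4.89 CPM in OAL and 11.8 to 20.0 CPM in OCR, 2.13 to 5.87 CPM in YAL and 6.36 to 13.7 CPM in YCR HSCs. Its changes were 1.76 ± 0.29 (adjusted p = 0.00249) and 1.42 ± 0.30 (adjusted p = 0.0155), with a difference of 0.34 (95% interval -0.52 to 1.2). This gene of late mitosis was thus called at both ages in the fit of all 16 libraries only. Ung, which removes uracil from DNA, was at 4.61 to 5.90 CPM in OAL and 11.7 to 17.1 CPM in OCR, 5.46 to 10.2 CPM in YAL and 10.0 to 35.2 CPM in YCR HSCs, where the young groups overlapped. Its changes were 1.40 ± 0.29 and 1.61 ± 0.29 (adjusted p = 0.0141 and 0.00729). Sec24d, a coat protein of vesicles leaving the endoplasmic reticulum, was at 17.0 to 20.7 CPM in OAL and 39.2 to 54.5 CPM in OCR, 7.68 to 21.8 CPM in YAL and 28.2 to 62.7 CPM in YCR HSCs. The groups lay apart at both ages, with changes of 1.28 ± 0.26 and 1.37 ± 0.26 (adjusted p = 0.0114 and 0.0101) and a difference of -0.09 (95% interval -0.85 to 0.67). Synpo2, an actin-binding protein, changed by 1.28 ± 0.32 and 1.76 ± 0.32 (adjusted p = 0.0498 and 0.00729), and was at 1.78 to 2.80 CPM in OAL and at 4.87 to 6.61 CPM in OCR HSCs, and at 2.62 to 3.92 CPM in YAL and 4.87 to 16.3 CPM in YCR HSCs.

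**Figure D4:**
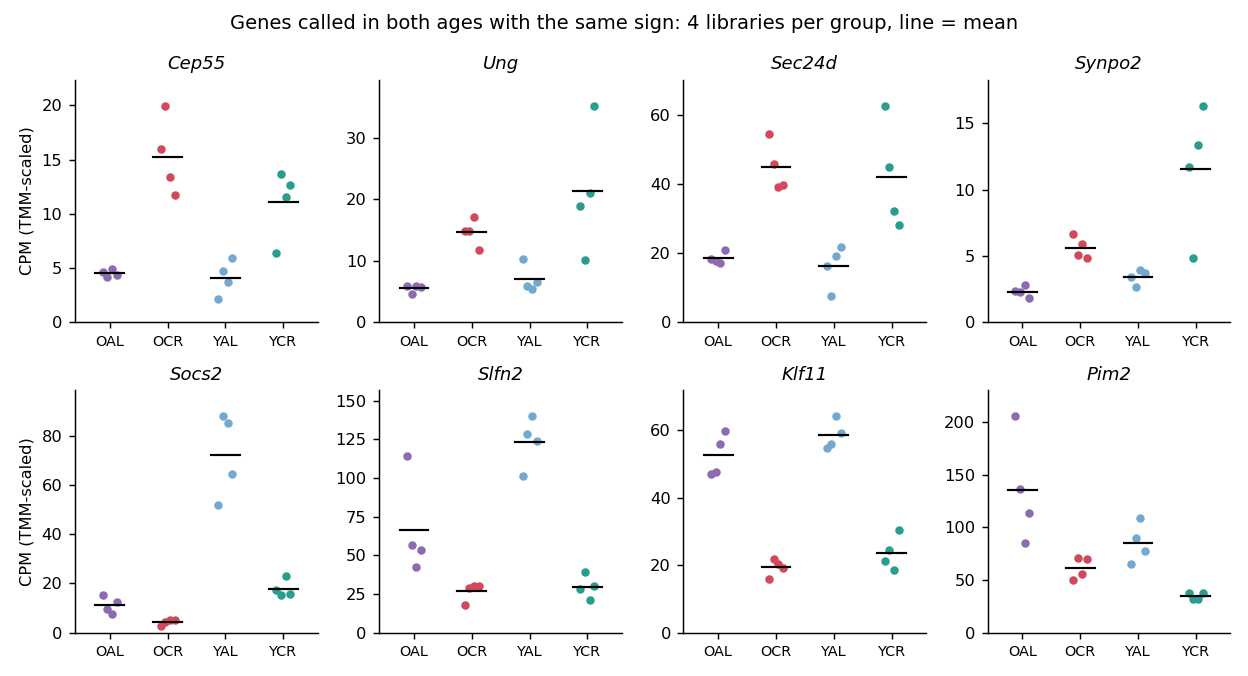
Level (CPM after TMM scaling, y axis from 0) of 8 genes called with the same sign at both ages and not in the difference, in each of the 4 libraries per group (points) with the group mean (line). Cep55, Ung, Sec24d and Synpo2 are higher and Socs2, Slfn2, Klf11 and Pim2 lower with CR, and ad lib and CR points overlap only for Ung in young HSCs.

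The aging signature lists were described as a whole. For these and the lists that follow, the share of all genes called was 1.48% in old and 2.5% in young HSCs. List counts near these shares are not read as results about the list. Of 180 genes that rise with age, 37 fell and 0 rose with CR in old HSCs, 28 fell and 1 rose in young HSCs, and 12 fell in both. The medians were -0.38 in old and -0.31 in young HSCs, with a difference of -0.17 that was below 0 in most members (71 of 180 above 0), and 16 members were alike. In the fits of each age alone, 97 fell and 1 rose in old HSCs and 3 fell in young HSCs. The level of the list, as defined for the G2/M list, was 0.60 to 0.65 in OAL, 0.13 to 0.36 in OCR, -0.31 to -0.15 in YAL and -0.55 to -0.45 in YCR HSCs, so that genes of the list were lower with CR in young HSCs too. Clu, the secreted chaperone clusterin, fell at both ages, with changes of -0.97 in old (adjusted p = 0.00141) and -1.38 in young HSCs (adjusted p = 0.000189), with a difference of 0.41 (95% interval -0.04 to 0.86). Osmr, the oncostatin M receptor gene, changed by -0.93 and -0.45 and did not pass the test at either age in this fit. The study named Osmr among the signature genes whose change was mitigated by lifelong CR, from old groups only, whereas this fit holds 1 spread for old and young libraries.

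Of 39 genes that fall with age, 9 rose and 1 fell in old HSCs, and 0 rose and 3 fell in young HSCs. The fit of old HSCs alone gave 17 that rose and 3 that fell. That of young HSCs alone gave 0 that rose and 1 that fell. The medians were 0.25 and -0.02, with a difference of 0.35 that was above 0 in 32 of 39 members and reached an unadjusted p below 0.05 in 14, 13 of them higher. The level of this list was -0.65 to -0.49 in OAL, -0.33 to -0.19 in OCR, 0.37 to 0.52 in YAL and 0.32 to 0.50 in YCR HSCs, with the old groups apart and the young groups overlapping. Mcm5, Mcm7 and Ect2, which act in the cell cycle, were among the 9 that rose in old HSCs, as were the tyrosine kinase gene Syk and Mlec, a lectin gene of the endoplasmic reticulum, both of which were alike (names chosen after their values were seen). The member that fell at both ages was Socs2.

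**Figure D5:**
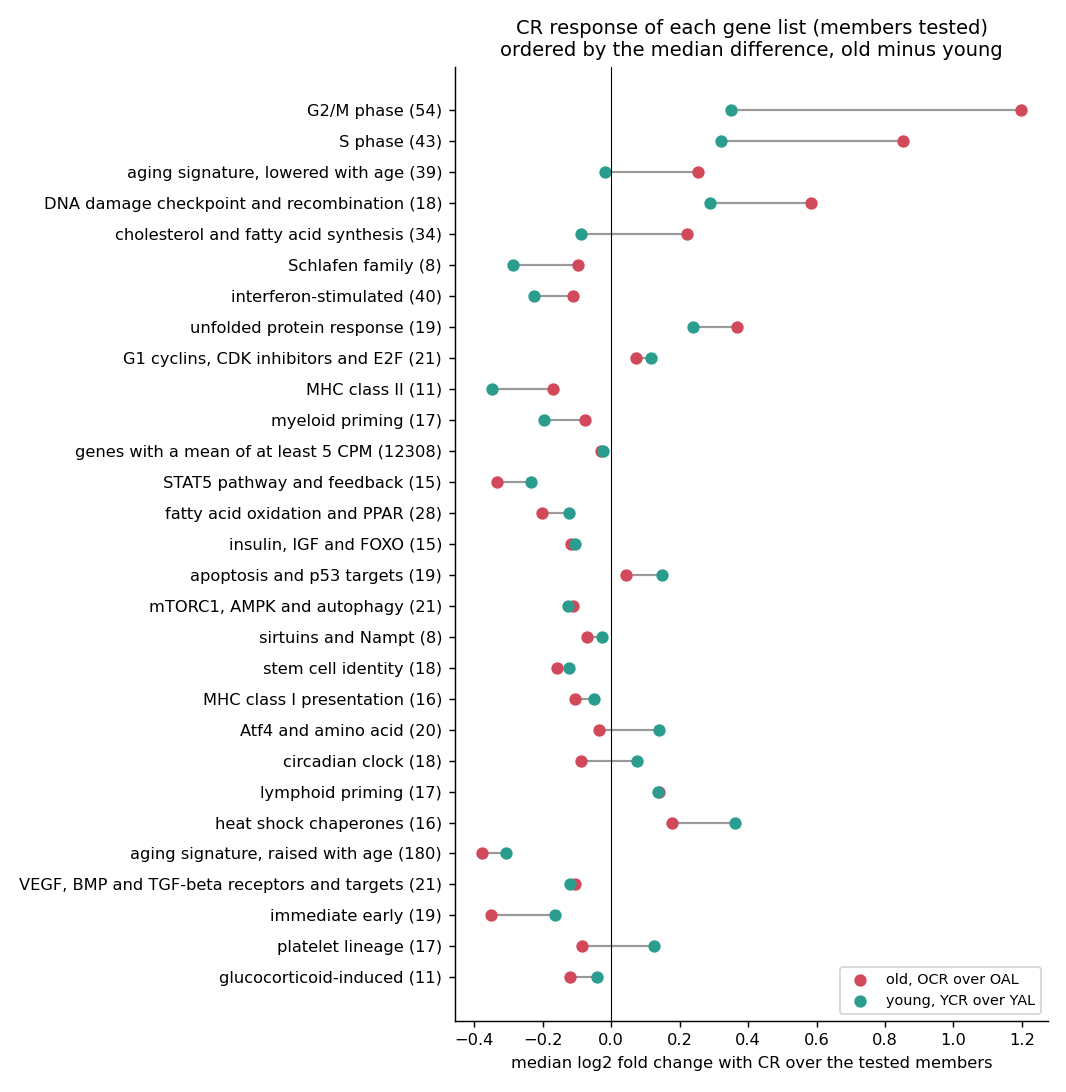
Median log2 fold change with CR over the tested members of each gene list (x axis), in old HSCs (OCR over OAL) and young HSCs (YCR over YAL), with the lists ordered by their median difference. The G2/M list is at 1.2 and 0.35 and the S phase list at 0.85 and 0.32, while the list of aging signature genes that rise with age lies below 0 at both ages.

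Among immune lists, 11 of 40 interferon-stimulated genes fell with CR in young HSCs and 2 fell in old HSCs, and 0 rose. The medians were -0.23 in young and -0.11 in old HSCs. The difference had a median of 0.21, was above 0 in 34 members and reached an unadjusted p below 0.05 in 10, all of them higher, with none called. In the fits of each age alone, 5 fell in old and 2 in young HSCs. Ifitm1, a membrane protein that blocks virus entry, fell at both ages, by 0.53 in old (adjusted p = 0.000839) and 0.95 in young HSCs (adjusted p = 3.53e-06), and Ifitm3, of the same family, was alike (-0.41 and -0.40). Irf7, the transcription factor gene of the interferon response, changed by -0.04 in old and -0.85 in young HSCs (adjusted p = 1 and 0.0315), with a difference of 0.81 (adjusted p = 0.416). Of 15 genes of the STAT5 pathway, 4 fell in old and 4 in young HSCs, 3 of them in both, and 6 and 3 fell in the fits of each age alone. Of 8 Schlafen genes, Slfn9 rose in old HSCs by 0.97 (adjusted p = 0.00283) against -0.14 in young HSCs, with a difference of 1.10 (adjusted p = 0.108).

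Of 19 genes of the unfolded protein response, 10 rose in old and 4 in young HSCs, 4 of them in both, with medians of 0.37 and 0.24. In the fits of each age alone, 12 rose in old and 1 in young HSCs. The difference was above 0 in 13 members, with a median of 0.18. Sdf2l1, a cofactor of the chaperone BiP, rose by 1.81 and 1.13 (adjusted p = 0.000188 and 0.0129), and Hspa5, which encodes BiP, rose by 0.75 in old HSCs (adjusted p = 0.000243) and changed by 0.32 in young HSCs (adjusted p = 0.0788). Of 16 cytosolic and other heat shock chaperones, 1 rose in old and 5 in young HSCs, and 5 and 4 rose in the fits of each age alone. Their medians were 0.18 and 0.36, and the difference was above 0 in 1 of 16 members (median -0.14), with 0 members at an unadjusted p below 0.05. Hsp90aa1, the inducible HSP90, rose at both ages by 0.33 and 0.54 (adjusted p = 0.0267 and 0.000912) and was alike.

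Of 34 genes of cholesterol and fatty acid synthesis, 2 rose in old HSCs, and 1 rose and 1 fell in young HSCs, whereas the fits of each age alone gave 9 that rose in old HSCs and 0 calls in young HSCs. The medians were 0.22 and -0.09, and the difference was above 0 in 28 members, with a median of 0.27. Scd2, a fatty acid desaturase gene, rose at both ages (1.03 and 0.58, adjusted p = 0.00035 and 0.0297), whereas Fads2, another desaturase gene, changed by -0.02 in old HSCs and fell by 0.53 in young HSCs (adjusted p = 0.00567, difference 0.51, adjusted p = 0.24). Of 28 genes of fatty acid oxidation, 2 fell in old and 3 in young HSCs, where 1.48% and 2.5% of all genes were called. In the fits of each age alone, 7 and 0 fell. Cpt1a, which loads fatty acids onto carnitine for import into mitochondria, fell by 0.74 and 0.47 (adjusted p = 0.00233 and 0.0476), and Acadl, a dehydrogenase of long-chain fatty acids, fell by 0.48 and 0.37 (adjusted p = 0.00211 and 0.0166).

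Of 21 genes of mTORC1, AMPK and autophagy, 3 fell in old and 3 in young HSCs, 0 rose, and 4 were alike, while 5 and 0 fell in the fits of each age alone. Sqstm1, the autophagy receptor p62, was called only in old HSCs (-0.30 and -0.25, adjusted p = 0.0442 and 0.0696). Ulk1, the kinase that starts autophagy, was called at neither age (-0.31 and -0.41, adjusted p = 0.316 and 0.054). Prkaa2, a catalytic subunit of AMPK, changed by -0.36 and -0.85 and did not pass the test in this fit. The study reported Prkaa2, Ulk1 and Sqstm1 as lower in OCR HSCs and saw no such difference in YCR HSCs. It compared diets at matched age with DESeq2, whereas this edgeR fit holds 1 spread for old and young libraries. Of 15 genes of insulin, IGF1 and FOXO signaling, 1 fell in old and 2 in young HSCs, and in the fits of each age alone 5 fell and 1 rose in old HSCs and 0 were called in young HSCs. Foxo1 fell by 0.76 in old HSCs (adjusted p = 0.00383) and changed by -0.35 in young HSCs (adjusted p = 0.168), and Igf1 changed by -0.12 in old HSCs and fell by 1.13 in young HSCs (adjusted p = 0.028), with a difference of 1.02 (adjusted p = 0.436). None of 8 genes of the sirtuins and Nampt was called at either age, where edgeR called 1.48% and 2.5% of all genes. Trib3, a pseudokinase gene induced by Atf4, fell by 1.00 and 1.01 (adjusted p = 0.00249 and 0.00349), was alike, and had a difference of 0.01 (95% interval -0.48 to 0.50). These Trib3 calls are from the fit of all libraries, and it was not called at both ages in the fits of each age alone.

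Of 18 genes of stem cell identity, 4 fell in old HSCs, 4 fell and 1 rose in young HSCs, and 5 were alike, among them Mllt3, a cofactor known to sustain HSCs (-0.42 and -0.49, adjusted p = 0.0196 and 0.00887). In the fits of each age alone, 5 identity genes fell and 1 rose in old HSCs and 1 rose in young HSCs. Of 17 platelet-lineage genes, 2 fell in old HSCs, and 2 rose and 1 fell in young HSCs, with 4 that fell in old and 0 called in young HSCs in the fits of each age alone. The median difference was -0.26, 3 members had a difference above 0, and Itgb3 was called. Its partner Itga2b changed by 0.25 in old HSCs and rose by 0.75 in young HSCs (adjusted p = 0.00703, difference -0.49, adjusted p = 0.453), and Vwf, the von Willebrand factor gene, changed by -0.40 in old HSCs and fell by 0.83 in young HSCs (adjusted p = 0.0152). Of 21 genes of VEGF, BMP and TGF-beta signaling, 1 fell in old HSCs and none was called in young HSCs, and 6 fell and 1 rose in the fit of old HSCs alone. Kdr, the VEGF receptor 2 gene, changed by -1.14 and -0.75 and Bmpr1a, a BMP receptor gene, by -0.77 and -0.15. Neither passed the test at either age in this fit, which holds 1 spread for old and young libraries. The study reported both genes as lower in OCR than in OAL HSCs, by a t test of the old groups. Spi1, which encodes PU.1, changed by 0.12 and 0.16 and did not pass the test. Of 11 genes induced by glucocorticoids, 3 fell in old and none was called in young HSCs. The median difference was -0.26, above 0 in 2 members, with Mt1 called and Klf9, a Kruppel-like factor gene, at -0.58 in old (adjusted p = 0.00402) and -0.31 in young HSCs (adjusted p = 0.114) and alike.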

How the data were processed

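RNA-seq libraries of OAL, OCR, YAL and YCR HSCs were analysed, 4 per group, with groups taken from the sample labels. The authors trimmed reads with trim galore and cutadapt, aligned them to mm10 with STAR and ran featureCounts on the GENCODE M22 annotation, and they deposited raw counts for each gene. The study and the sample labels name different kits for the cDNA. Versions of STAR and featureCounts, strand setting and treatment of multi-mapping reads are not given in the sources used here, which makes values of overlapping, antisense or near-identical genes uncertain. Columns of no mapped sample numbered 0.

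Counts were fitted in R 4.3.3 with edgeR 4.0.16 (filterByExpr by group, TMM, glmQLFit, glmQLFTest) with 1 term per group. Of 55376 genes, 28328 passed the filter. The SE was taken from F, as the size of the log2 fold change over the root of F. CPM was computed from the deposited counts, and log2 CPM used a prior count of 2. Precision was bounded by totals of 17194907 to 35676728 counts per library. The script was tested on simulated data with 1 spread per gene for all groups. Its calls under a spread that differs between the ages were not tested.

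The comparison, its lists and its rule for names were chosen with earlier results of these data known, and list examples outside the rule were picked once their values were known. The rule took genes called in the difference that averaged at least 5 CPM, without overlap of the library responses between the ages, the 4 genes per direction with the largest smaller response among those called in both ages, genes the study names for CR, and called list members. Gm26719 fell outside it. The aging signature symbols came from the study's list, which other studies defined. Promoters came from RefSeq (GRCm38.p6) and gene positions from GENCODE M21, and 27025 promoters were searched. The E2F letters and the other motifs were chosen with earlier results known.

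Alternatives were DESeq2 1.42.0, its size factors, TMM factors from genes of at least 5 CPM, 3 other filters, the replicate number as a block, the receptor gene level as a covariate, the refed groups added to the fit, no fold threshold and leaving out each library. Fits of each age on its own and limma 3.58.1 voom with a separate variance for each age were also made, and the second of these and the overlap of the calls of the separate fits were chosen after seeing the data. Refed, knockdown, ATAC-seq and ChIP-seq samples were not used here otherwise.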

Additional observations from a re-analysis of the deposited data

Results flagged for a closer look

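Over 37 named genes, 147 groups of 4 libraries were examined for a library far from the other 3, and 8 were found, where chance gives about 1 in 20 (5%). In each, the gap of that library to its nearest neighbor passed Dixon's 95% limit as a share of the group's range. The lowest libraries were YAL replicate 2 for Mt1 (27.8 CPM, others 33.7 to 34.8), OAL replicate 2 for Ung (4.61 CPM, others 5.71 to 5.90), OCR replicate 1 for Slfn2 (18.1 CPM, others 28.8 to 30.4), YAL replicate 3 for Mki67 (8.61 CPM, others 38.0 to 39.1), and YCR replicate 1 for Igha (0 CPM) and Jchain (0 CPM). The highest were OCR replicate 2 for Brca1 (29.2 CPM, others 25.4 to 25.9) and YAL replicate 3 for Kdr (34.0 CPM, others 20.2 to 22.0).

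The 12 genes whose CR response differed between the ages by the test of the difference itself had log2 differences of 1.45 (Ccnb1), 1.41 (Cdk1), 1.27 (Top2a), 0.98 (Mamdc2), 0.75 (Prdx4), -1.03 (Mt1), -1.29 (Sult1a1), -1.34 (Itgb3), -8.80 (Gm26719), -12.26 (Igkc), -13.70 (Jchain) and -17.14 (Igha). The last 4 are fitted values set by libraries with few or no counts. They depend on the prior count and are not bounds.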

How the results depend on the processing

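The 12 genes called in the difference kept their sign under every alternative in which they were tested. The count depended on 1 library at a time: leaving out any OAL or OCR library, or YAL replicate 4, left 1 to 3 genes higher and 1 to 4 lower, and 10 of the 12 genes lost their call without OAL replicate 1 or 3, OCR replicate 1, 2 or 4, or YAL replicate 4, whereas 16 and 11 were called without YAL replicate 1 and 14 and 9 without YCR replicate 4. Over all fits without 1 library the counts ran from 1 to 16 higher, 1 to 11 lower, 58 to 129 called in both ages, 179 to 321 alike, 212 to 477 called in old and 417 to 1299 called in young HSCs. Calls in both ages ran from 58 to 79 without an OAL library or OCR replicate 1, 2 or 4, calls in old HSCs from 212 to 252 without OAL replicate 1, 2 or 4 or OCR replicate 1 or 2, and calls in young HSCs from 417 to 466 without OAL replicate 1, 3 or 4 or OCR replicate 1 or 2, with 1299 without YCR replicate 1. Alike genes numbered 179 without OAL replicate 4 and 199 without OCR replicate 1. DESeq2 called 111 higher and 128 lower, 251 in both, 735 in old and 2450 in young HSCs. No filter on low counts gave 9 higher and 14 lower, at least 10 counts in every library gave 10 higher, and a mean of at least 5 CPM gave 12 higher and 13 lower. With the refed groups in the fit, 0 genes were higher and 3 lower (2673 at an unadjusted p below 0.05), 36 were called in both, 148 alike, 212 in old and 201 in young HSCs. Limma voom with a separate variance for each age gave 0 higher and 0 lower (1983 at an unadjusted p below 0.05), 19 in both, 1545 in old and 27 in young HSCs. Each age fitted on its own 8 libraries gave 1511 called in old and 48 in young HSCs, with 35 in both. The cause of these shifts was not tested, except that fewer libraries or genes entered some fits. Replicate numbers did not pair the samples (correlations of same-numbered deviations -0.15 to 0.05). With the number as a replicate block over all 4 groups, 1 gene was higher and 2 lower, and 429 were called in young HSCs. With a block within age, 1 was higher and 1 lower, 60 were called in both and 283 in young HSCs. Mcm5 passed the threshold in 6 alternatives, DESeq2 among them (adjusted p = 0.00086). For Osmr, whose change was not called, the difference was 0.49 without YCR replicate 4, the opposite sign of the fitted one. The median reach of the 95% interval of the difference, 0.43 on the log2 scale, limits what could be called.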

Other observations

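For other lists, counts are from the fit of all 16 libraries unless said otherwise. That fit called 1.48% of all genes in old and 2.5% in young HSCs, and counts of 0 or 1 member are not told apart from these shares. Of 21 genes of G1 cyclins, CDK inhibitors and E2F factors, 4 rose and 1 fell in old HSCs and 1 rose and 1 fell in young HSCs, with a median difference of 0.17, and 8 rose and 1 fell in the fit of old HSCs alone. One example, E2f8, a repressor made in late S phase, rose by 1.65 in old HSCs (adjusted p = 0.00181) against 0.10 in young HSCs, and its difference of 1.55 had an adjusted p of 0.181 by edgeR. Of 18 circadian clock genes, 1 rose and 1 fell in old HSCs and 2 rose in young HSCs. Fitted alone, old HSCs had 3 that rose and 3 that fell, and young HSCs had 0 called. Per2, a clock repressor, changed by 0.44 in old HSCs and rose by 0.92 in young HSCs (adjusted p = 0.00942, difference -0.48, adjusted p = 0.607). Of 19 immediate early genes, 2 fell in old HSCs and 0 were called in young HSCs, with medians of -0.35 and -0.17, and 7 fell and 1 rose in the fit of old HSCs alone. Of 20 Atf4 and amino acid genes, 1 fell in old HSCs and 1 rose and 2 fell in young HSCs. Fitted alone, old HSCs had 4 that rose and 2 that fell, and young HSCs had 0 called.

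Of 11 MHC class II genes, 0 were called in old HSCs and 1 rose and 1 fell in young HSCs. The fits of each age alone called 0 of them. Of 16 genes of MHC class I presentation, 1 fell in young HSCs, and of 19 apoptosis genes and p53 targets, 2 fell in young HSCs. With each age fitted alone, 1 MHC class I gene fell in old HSCs and 0 were called in young HSCs. For the apoptosis list, 1 gene fell at each age in those fits. Of 17 lymphoid priming genes 0 were called at either age, and of 17 myeloid priming genes 1 fell in old HSCs. Of 15 erythroid genes 1 rose in old HSCs. The fit of old HSCs alone gave 3 myeloid priming genes that fell, and 3 erythroid genes that rose and 4 that fell. Neither list had a call in the fit of young HSCs alone. The sign of the median difference turned under some alternatives for the MHC class II, apoptosis, STAT5, Atf4, fatty acid oxidation, insulin, mTORC1, sirtuin, myeloid priming and erythroid lists, so no direction of the difference is given for them. Of the 10 B cell and plasma cell genes tested, 1 fell in old HSCs and 3 rose in young HSCs. Fitted alone, old HSCs had 2 that fell and young HSCs had 0 called. Of the 8 T and NK cell genes tested, 1 fell in old HSCs, and 1 rose and 1 fell in the fit of old HSCs alone. No gene of the neutrophil, stroma or mast cell lists was called at either age by edgeR.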
